A study of Mus musculus with 8 samples.

Results

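The insulin receptor signalling chain was followed at the RNA level in mouse hearts through 10 genes: the receptors Insr and Igf1r, the receptor substrates Irs1 and Irs2, the phosphoinositide 3-kinase (PI3K) subunit Pik3r1, the kinases Akt1 and Akt2, the AKT substrate Tbc1d4 and the adaptor inhibitors Grb10 and Grb14. They were chosen by name from the 55573 genes of the deposited count table, and all 10 were found and passed the filter on low counts. The hearts came from male C57BLKS/J mice, 24 weeks old. The db/db mice carried the diabetes mutation of the leptin receptor on both alleles, and the db/m mice, the controls, carried it on a single allele, so the mutation was not absent from either group. There were 4 db/db and 4 db/m libraries of heart RNA. The labels do not say that each came from a separate animal or which chambers were taken, and p-values here describe library-to-library spread, which may be technical in part.

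Insulin binds the insulin receptor, a tyrosine kinase, which phosphorylates the IRS proteins. These recruit PI3K, whose lipid product brings AKT to the membrane, and AKT then phosphorylates TBC1D4 (also called AS160), which releases the glucose transporter GLUT4 to the surface of muscle cells. In heart muscle the same chain also restrains FOXO transcription factors and promotes growth, and much of its regulation is by phosphorylation, which RNA counts do not measure.

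Library totals ran from 19541757 to 22249911 counts, and each of the 10 genes had between 325 and 7185 counts in every library. The 8 markers of heart muscle cells summed to 31620 to 38640 CPM in db/db and to 28960 to 36050 CPM in db/m, where CPM is the read count relative to the scaled library size. These sums are mostly Myh6 and Actc1 and do not show the single markers. Of the 8, 2 (Tnnt2 and Mybpc3) were higher in every db/db library than in every db/m library, and 0 were lower. Of all tested genes 5.04% were higher and 4.61% lower in this way. In db/m replicate 3, 6 of the 8 were lower than in all other libraries and the other 2, Myh6 and Ryr2, were higher than in all others. Myl2, a ventricular myosin light chain, had 760 to 999 CPM in db/db, against 117 CPM in db/m replicate 3 and 593 to 781 CPM in the other db/m libraries. The part of this in the results below was not tested. The 5 endothelial markers summed to 1284 to 1823 CPM in db/db and to 1457 to 1667 CPM in db/m. Of these 5, 2 (Tek and Tie1) were lower in every db/db library than in every db/m library, and 0 were higher. The 6 skeletal muscle markers summed to at most 2.28 CPM in any library.

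Of the control libraries, db/m replicates 1 and 3 stood apart. The 8 adipocyte markers summed to 24.5 to 37.4 CPM in db/db libraries, against 360 and 909 CPM in db/m replicates 1 and 3 and 29.3 and 27.4 CPM in db/m replicates 2 and 4, and 8 of 8 were higher in replicates 1 and 3 than in the other 6 libraries. The 6 atrial markers, of which again 6 of 6 were highest in these 2 libraries, summed to 24.9 to 118 CPM in db/db, against 1632 and 3887 CPM in db/m replicates 1 and 3 and 16.0 and 89.8 CPM in db/m replicates 2 and 4. Ucp1 and Retn of the adipocyte list and Sln of the atrial list were at 0 counts in all 4 db/db libraries. In db/m replicates 2 and 4 Ucp1 had 2 and 0 counts, Retn 1 and 0, and Sln 0 and 83. Cidea, of the same adipocyte list, was present in every library. It had 24.3 to 36.5 CPM in db/db, 27.5 and 24.4 CPM in db/m replicates 2 and 4, and 48.0 and 99.4 CPM in db/m replicates 1 and 3.

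A second feature touched long genes. Levels tended upward with gene length in db/m replicate 3, by 0.246 log2 CPM per doubling of exon length relative to the mean of the libraries, while the other 7 libraries lay between -0.0815 and 1.38e-05. The 10 genes have 4098 to 16791 exonic bases, all above the median of 3659 over the genes tested. The 7561 tested genes in that length range had a median log2 fold change of -0.12, against -0.02 over all tested genes. Values without these libraries, or with the length trend of each library removed, are given for genes whose value they clearly move.

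**Figure D1:**
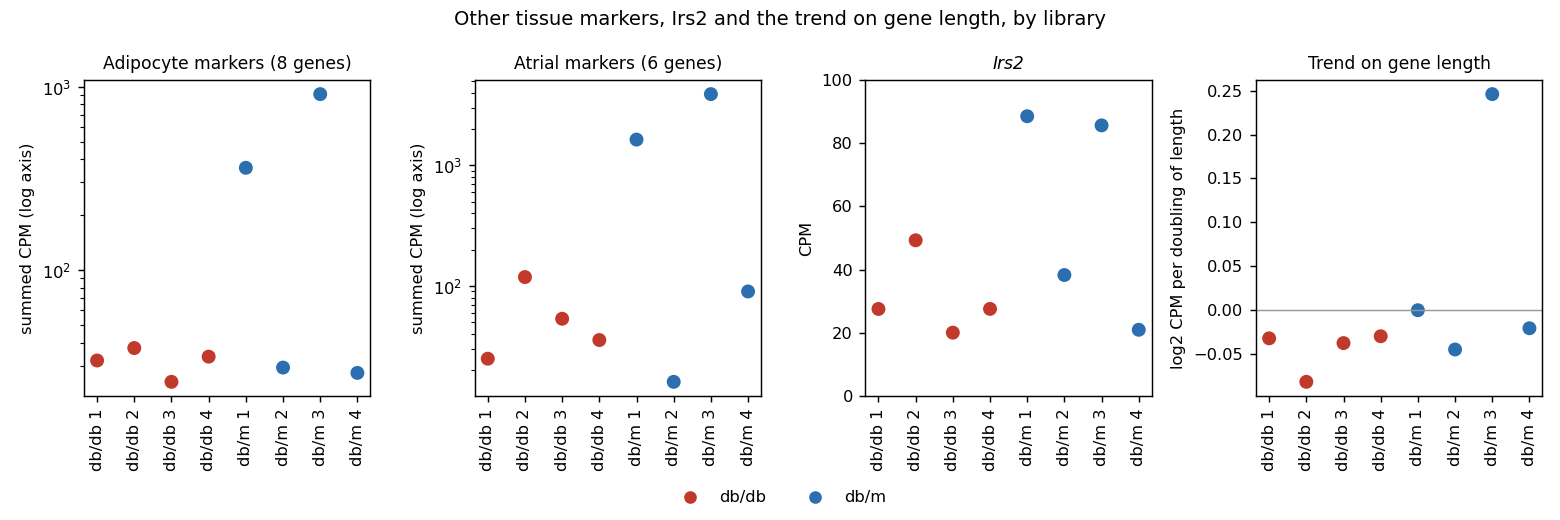
Summed CPM of 8 adipocyte and of 6 atrial markers (log axes), Irs2 CPM, and the slope of log2 CPM on doubling of gene length, in each of the 4 db/db (red) and 4 db/m (blue) libraries. Replicates 1 and 3 of db/m lie above the other 6 libraries in the first 3 panels, and db/m replicate 3 alone stands out in the last, at 0.246.

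Diabetic db/db hearts were set against db/m hearts at each step of the chain. Of the 10 genes 0 passed an adjusted p of 0.05 (edgeR's quasi-likelihood test, Benjamini-Hochberg over 17411 genes), and their adjusted p-values ran from 0.271 to 0.895. Over all tested genes 1 passed (0.00574%). At an unadjusted p under 0.05 there were 2 of the 10, Irs1 and Tbc1d4, both lower in db/db, where 13.0% of all tested genes had such a p. DESeq2 and limma-voom also called 0 of the 10, where they called 2.17% and 0.58% of all genes, and each had 3 of the 10 at an unadjusted p under 0.05, where 14.6% of all genes had one in DESeq2 and 14.3% in limma-voom. Those were Irs1, Irs2 and Tbc1d4 in DESeq2, and Irs1, Pik3r1 and Akt1 in limma-voom. The groups did not overlap in 2 genes, Irs1 and Akt2, both lower in db/db, and in 0 genes that were higher. Over all tested genes the groups did not overlap in 9.65%, made up of 5.04% higher and 4.61% lower in db/db, as shares of all tested genes. Log2 fold changes (db/db over db/m) were positive in 4 and negative in 6, with a median of -0.19, against -0.02 over all tested genes. Without db/m replicates 1 and 3, 0 of the 10 passed and 4 had an unadjusted p under 0.05 (Irs1, Pik3r1, Akt1 and Tbc1d4), where 0.256% and 10.7% of all genes did. With the length trend removed these were 0 and 3 (Irs1, Insr and Pik3r1), where 0.0574% and 13.5% of all genes did. With that and without db/m replicate 3, a fit added after seeing the data, they were 0 and 4 (Irs1, Insr, Pik3r1 and Akt1), beside 0.634% and 13.1%. In whole tissue, fewer cells of a type and less RNA per cell cannot be told apart.

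**Figure D2:**
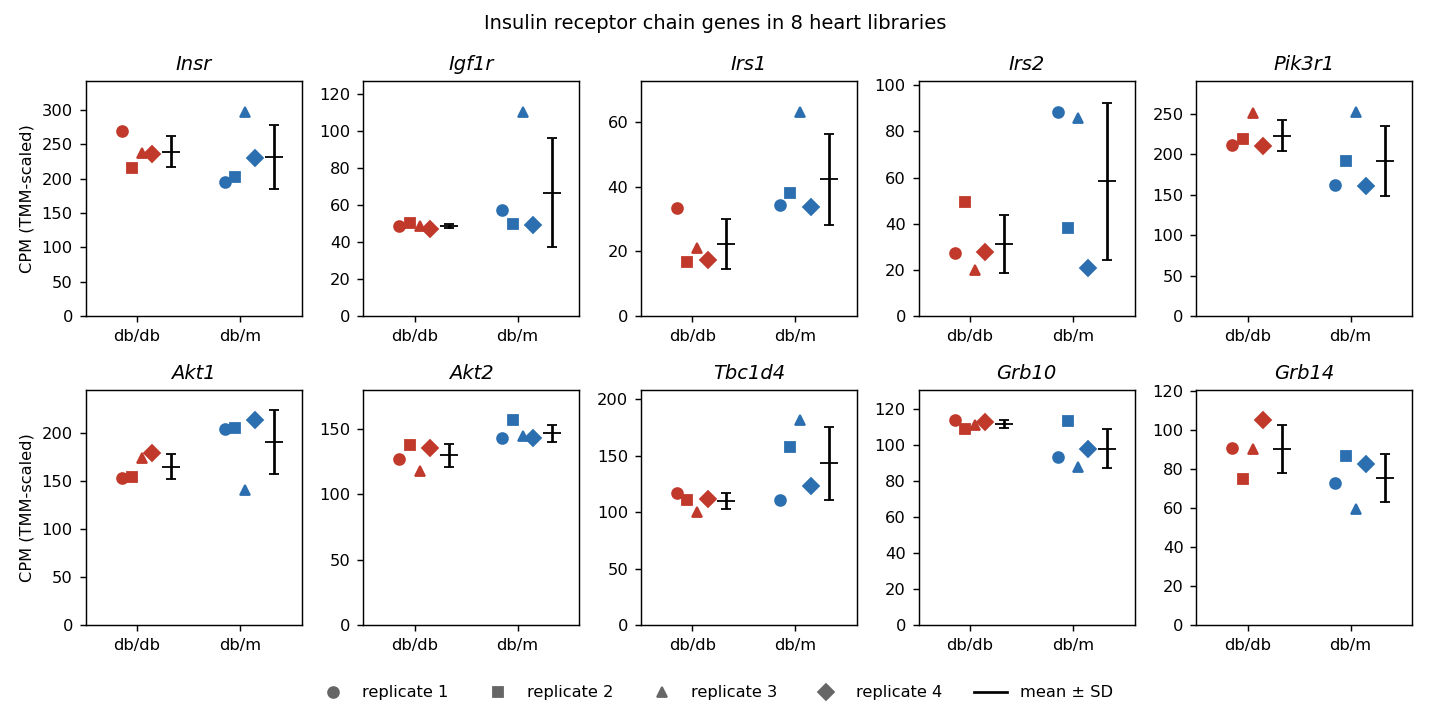
CPM of each of the 10 genes in every library, db/db left (red) and db/m right (blue), with symbols for replicates and the mean ± SD of 4 libraries beside them. In Igf1r and Irs1 the highest point is db/m replicate 3, and in Irs2 the db/m libraries split into 88.5 and 85.6 CPM against 38.3 and 21.0 CPM.

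**Figure D3:**
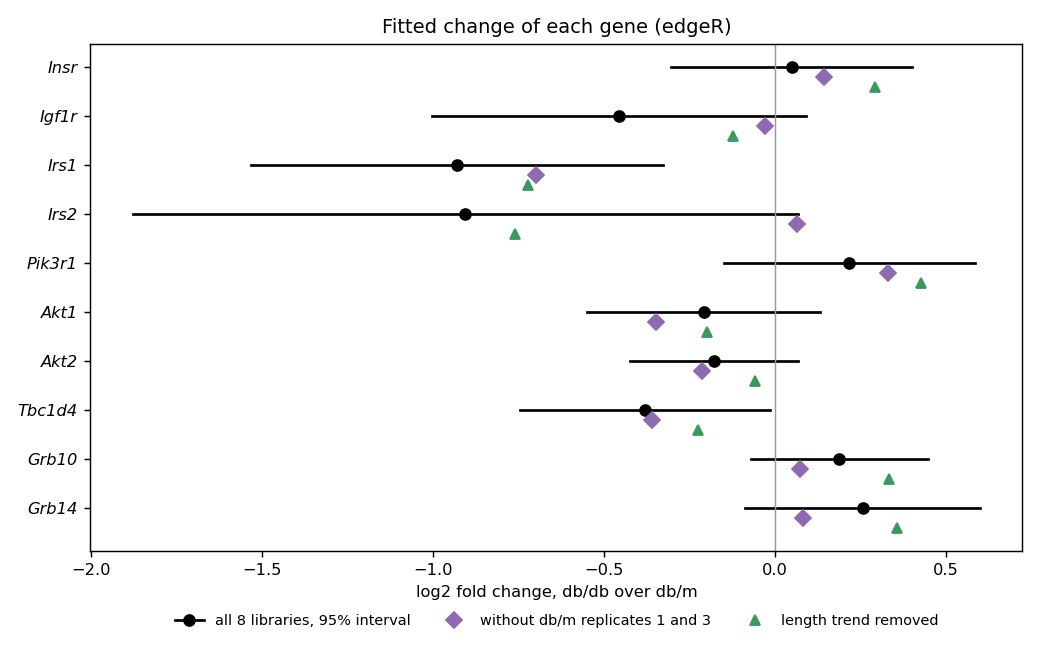
Log2 fold change of each gene in edgeR: with its 95% interval on all 8 libraries (black), and as a value alone without db/m replicates 1 and 3 (purple) and with the length trend removed (green). The black intervals of Irs1 and Tbc1d4 exclude 0, and the Irs2 value moves to 0.07 without the 2 libraries.

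The receptors came first in the chain. Insr, the insulin receptor (ENSMUSG00000005534, chromosome 8, 3122061 to 3279617, mm10), had 269, 215, 237 and 236 CPM in db/db replicates 1 to 4, against 196, 202, 297 and 229 CPM in db/m replicates 1 to 4. The groups overlapped, and the highest value of all was db/m replicate 3. Its log2 fold change was 0.05 (95% interval -0.30 to 0.40), so the data allow a change of either sign within that interval (edgeR, adjusted p = 0.895). With the length trend removed the value was 0.29 (SE 0.11; edgeR, adjusted p = 0.309), and it was 0.20 without db/m replicate 3 and 0.14 without db/m replicates 1 and 3.

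Igf1r, the receptor for insulin-like growth factor 1 (IGF-1) and a close relative of the insulin receptor (ENSMUSG00000005533, chromosome 7, 67952827 to 68233668), had 48.7, 50.3, 48.6 and 47.2 CPM in db/db, against 57.7, 49.6, 110.6 and 49.4 CPM in db/m. The db/db libraries were tightly grouped, and db/m replicate 3 was far above all other libraries. The log2 fold change was -0.46 (SE 0.25; edgeR, adjusted p = 0.438). It was -0.09 without db/m replicate 3 and -0.12 with the length trend removed.

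Of the substrates, Irs1 (ENSMUSG00000055980, chromosome 1, 82233101 to 82291416), the docking protein through which insulin and IGF-1 receptors reach PI3K in muscle, had the smallest p of the 10. It had 33.4, 16.9, 21.1 and 17.3 CPM in db/db replicates 1 to 4, against 34.3, 37.9, 63.1 and 33.7 CPM in db/m replicates 1 to 4. Every db/db library lay below every db/m library, though db/db replicate 1 came close to the lowest db/m library. Mean levels were 22.2 ± 7.70 CPM in db/db and 42.3 ± 14.0 CPM in db/m (SD, n = 4 each).

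The log2 fold change of Irs1 was -0.93 (95% interval -1.53 to -0.33), a fold of 0.525, with an unadjusted edgeR p of 0.00635 that did not pass adjustment over all genes (edgeR, adjusted p = 0.271; DESeq2, adjusted p = 0.0618). It was -0.67 without db/m replicate 3, -0.70 without db/m replicates 1 and 3 and -0.72 with the length trend removed, and between -1.19 and -0.67 without any single library. Of its 9144 exonic bases 2822 (30.9%) lie opposite the exon of Gm9747, a gene model with 0 counts in all 8 libraries. Whether reads in that stretch were counted for Irs1 is not given in the sources used here, so its level per length is uncertain.

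Irs2 (ENSMUSG00000038894, chromosome 8, 10984681 to 11008458), the substrate that dominates in liver and pancreatic beta cells, had the largest SD relative to its mean of the 10 genes in both groups. It had 27.6, 49.3, 20.1 and 27.6 CPM in db/db, against 88.5, 38.3, 85.6 and 21.0 CPM in db/m. The groups overlapped, and the high db/m values were those of replicates 1 and 3, the libraries high in adipocyte and atrial markers. The log2 fold change of -0.91 (SE 0.44; edgeR, adjusted p = 0.409) turned to 0.07 (SE 0.44; edgeR, adjusted p = 0.977) without these 2 libraries. The part of those markers in the Irs2 value was not tested. Irs2 shares 162 exonic bases (2.56%) with 9530052E02Rik on the opposite strand, which had 0 counts in all libraries.

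The start regions of both substrate genes are shown because insulin restrains FOXO factors, which bind elements of this kind in insulin-repressed promoters, and because Irs2 is a known FOXO target in mouse liver. The sequences are the 250 bases upstream of the RefSeq start (build GRCm38.p6, the assembly of mm10), on the minus strand of chr1:82291440-82291689 for Irs1 and of chr8:11008930-11009179 for Irs2. Capitals mark the letters TGTTTTG, found in the insulin response sequence of the IGFBP1 promoter.
Irs1: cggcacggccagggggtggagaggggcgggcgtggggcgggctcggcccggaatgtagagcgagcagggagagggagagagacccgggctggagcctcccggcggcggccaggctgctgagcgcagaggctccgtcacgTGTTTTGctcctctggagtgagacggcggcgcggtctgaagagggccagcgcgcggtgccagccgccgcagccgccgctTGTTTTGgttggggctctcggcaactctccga
Irs2: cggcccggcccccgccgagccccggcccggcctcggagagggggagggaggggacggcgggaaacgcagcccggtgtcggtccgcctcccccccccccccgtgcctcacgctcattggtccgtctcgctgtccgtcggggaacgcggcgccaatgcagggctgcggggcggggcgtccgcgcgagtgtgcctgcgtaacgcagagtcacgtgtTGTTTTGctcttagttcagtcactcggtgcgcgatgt

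TGTTTTG was searched on both strands (its reverse complement is CAAAACA) in the 15 upstream windows that RefSeq gave for 9 of the 10 genes, all but Insr. It stood in 2 of the 15, those of Irs1 and Irs2, and in 5.56% of the 32851 windows of all genes. The related FOXO letters TGTTTAC (reverse complement GTAAACA) stood in 1 of the 15, a window of Akt1, and in 3.17% of all windows. The motifs were chosen with the levels of these genes known, and a match describes letters, not binding. Both windows are rich in G and C, at 72.4% for Irs1 and 72.8% for Irs2, against a median of 52.4% over all windows. This is not particular to them. Windows of Grb10 (81.2%), Akt1 (78.4%), Igf1r (77.6%), Pik3r1 (76.4%) and Grb14 (75.2%) were higher. The rest of the 15 windows were lower, down to 42.4% in another window of Pik3r1.

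Pik3r1 encodes the p85-alpha regulatory subunit, which holds the catalytic subunit of PI3K and docks on phosphorylated IRS proteins (ENSMUSG00000041417, chromosome 13, 101680563 to 101768217). It had 212, 219, 251 and 210 CPM in db/db, against 162, 192, 253 and 161 CPM in db/m. Replicates 1, 2 and 4 of db/m lay below all db/db libraries, and db/m replicate 3 lay above them. The log2 fold change was 0.22 (SE 0.17; edgeR, adjusted p = 0.555), and 0.38 without db/m replicate 3 (SE 0.11, unadjusted edgeR p of 0.00438, edgeR, adjusted p = 0.156). With the length trend removed it was 0.43 (SE 0.12; edgeR, adjusted p = 0.215).

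Akt1, the AKT form tied mainly to growth and survival (ENSMUSG00000001729, chromosome 12, 112653821 to 112674884), had 154, 154, 174 and 179 CPM in db/db, against 204, 205, 141 and 213 CPM in db/m. Replicates 1, 2 and 4 of db/m lay above all db/db libraries, and db/m replicate 3 lay below them all. The log2 fold change was -0.21 (SE 0.15; edgeR, adjusted p = 0.540), and -0.32 (SE 0.10; edgeR, adjusted p = 0.174) without db/m replicate 3. Akt1 is the shortest of the 10 genes, and with the length trend removed its log2 fold change was -0.20 (SE 0.15).

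Akt2, the form that carries most of insulin's effect on glucose uptake (ENSMUSG00000004056, chromosome 7, 27591552 to 27640826), had 127, 138, 118 and 136 CPM in db/db, against 143, 156, 144 and 143 CPM in db/m. The groups did not overlap, but the difference was small, with a log2 fold change of -0.18 (95% interval -0.42 to 0.07; edgeR, adjusted p = 0.479). It was -0.06 with the length trend removed, -0.18 without db/m replicate 3 and -0.22 without db/m replicates 1 and 3.

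The Akt2 count is uncertain, because a processed pseudogene on another chromosome copies its coding sequence. Akt2-ps (chromosome 11, 16514533 to 16515981, mm10) matched the Akt2 coding sequence at 1429 of 1446 aligned bases (98.8%), and stretches of at least 50 bases with no difference covered 93.6% of the alignment, the longest of them 221 bases. It was given 34471 counts over the 8 libraries, more than the 23335 given to Akt2 itself. The stretch with the most differences in any 90 bases shows how little tells the copies apart, with 3 differing bases in capitals. It covers bases 1132 to 1221 of the Akt2 coding sequence and 1135 to 1224 of the pseudogene, read in the direction of transcription from GENCODE M21 transcripts.
Akt2: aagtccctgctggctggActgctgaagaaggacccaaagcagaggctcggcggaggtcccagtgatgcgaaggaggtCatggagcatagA
Akt2-ps: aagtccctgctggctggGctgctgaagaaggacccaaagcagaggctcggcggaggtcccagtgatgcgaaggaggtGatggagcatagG

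Akt2-ps had 181, 169, 161 and 184 CPM in db/db, against 190, 231, 306 and 197 CPM in db/m. Every db/db library lay below every db/m library, as in 4.61% of all tested genes. Because little tells the copies apart, this cannot be taken as independent of the Akt2 counts. With the Akt2-ps counts added to Akt2, a choice made after seeing the data, the log2 fold change of Akt2 was -0.31 (unadjusted edgeR p of 0.0446; edgeR, adjusted p = 0.378). The added counts were highest in db/m replicate 3. The summed counts were not fitted without that library or with the length trend removed. How reads that fit both places were assigned is not given in the sources used here. A search of GENCODE M21 transcripts for matches of 200 bases or more at 95% identity or above found no copy of the other 9 genes, apart from the overlap of Irs1 with Gm9747.

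Tbc1d4, the Rab GTPase-activating protein that holds GLUT4 inside the cell until AKT phosphorylates it (ENSMUSG00000033083, chromosome 14, 101442360 to 101609191), had 117, 111, 100.05 and 112 CPM in db/db, against 111, 158, 181 and 124 CPM in db/m. Replicates 2, 3 and 4 of db/m lay above the db/db range, and db/m replicate 1 lay inside it. Its log2 fold change was -0.38 (95% interval -0.75 to -0.02), with an unadjusted edgeR p of 0.0423 that did not pass adjustment (edgeR, adjusted p = 0.374). It was -0.24 without db/m replicate 3 and -0.23 with the length trend removed, and -0.36 without db/m replicates 1 and 3.

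The adaptor inhibitors bind the activated receptor and damp its kinase. Grb10, an imprinted gene (ENSMUSG00000020176, chromosome 11, 11930508 to 12038683), had 114, 109, 111 and 113 CPM in db/db, against 93.3, 113, 87.6 and 97.9 CPM in db/m. The db/db libraries were close together, and db/m replicate 2 lay among them. On the log2 scale the fold change was 0.19 (95% interval -0.07 to 0.45; edgeR, adjusted p = 0.481). It was 0.07 without db/m replicates 1 and 3 and 0.33 with the length trend removed.

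Grb14, expressed mainly in insulin-sensitive tissues (ENSMUSG00000026888, chromosome 2, 64912476 to 65024987), had 90.5, 74.8, 90.1 and 105 CPM in db/db, against 72.9, 86.8, 59.4 and 82.5 CPM in db/m. The groups overlapped. In edgeR the log2 fold change was 0.26 (95% interval -0.09 to 0.60; edgeR, adjusted p = 0.473). Without db/m replicates 1 and 3 it was 0.08, and with the length trend removed it was 0.36 (SE 0.19). For both inhibitors these intervals leave room for a modest change in either direction.

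Levels were set side by side per kilobase of exon. Akt1 had 40.3 ± 3.26 CPM per kb in db/db and 46.6 ± 8.22 in db/m (SD, n = 4 each), above the other 9 genes as counted, with no overlap in either group. That place rests on how reads were divided between Akt2 and its copy. With the Akt2-ps counts added, over the Akt2 exon length, Akt2 had 42.6 ± 2.44 CPM per kb in db/db and 52.9 ± 7.59 in db/m, and it was above Akt1 in 3 of 4 db/db and 2 of 4 db/m libraries.

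As counted, Pik3r1 had 22.1 ± 1.88 CPM per kb in db/db and 19.0 ± 4.28 in db/m, and Akt2 had 18.2 ± 1.26 in db/db and 20.6 ± 0.905 in db/m (SD, n = 4 each). Insr had 17.4 ± 1.62 in db/db and 16.8 ± 3.38 in db/m, and Tbc1d4 had 14.3 ± 0.931 in db/db and 18.7 ± 4.20 in db/m. In db/db Akt2 and Insr overlapped. In db/m these 4 genes all overlapped, and their means stood in another order. Grb14 (12.5 ± 1.71 in db/db and 10.5 ± 1.69 in db/m) and Grb10 (12.3 ± 0.242 in db/db and 10.8 ± 1.20 in db/m) overlapped in both groups, and in db/db Grb14 also overlapped Tbc1d4.

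Igf1r had 2.90 ± 0.0738 CPM per kb in db/db and 3.98 ± 1.75 in db/m, and Irs1 had 2.43 ± 0.842 in db/db and 4.62 ± 1.53 in db/m (SD, n = 4 each). Their ranges overlapped in both groups and lay below those of the other genes apart from Irs2. Irs2 had 4.92 ± 1.99 in db/db, below both adaptor inhibitors, and 9.23 ± 5.36 in db/m, where replicates 1 and 3 lay above both inhibitors. Insr exceeded Igf1r per length in all 8 libraries, with a median ratio of 6.03 in db/db and 4.54 in db/m.

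**Figure D4:**
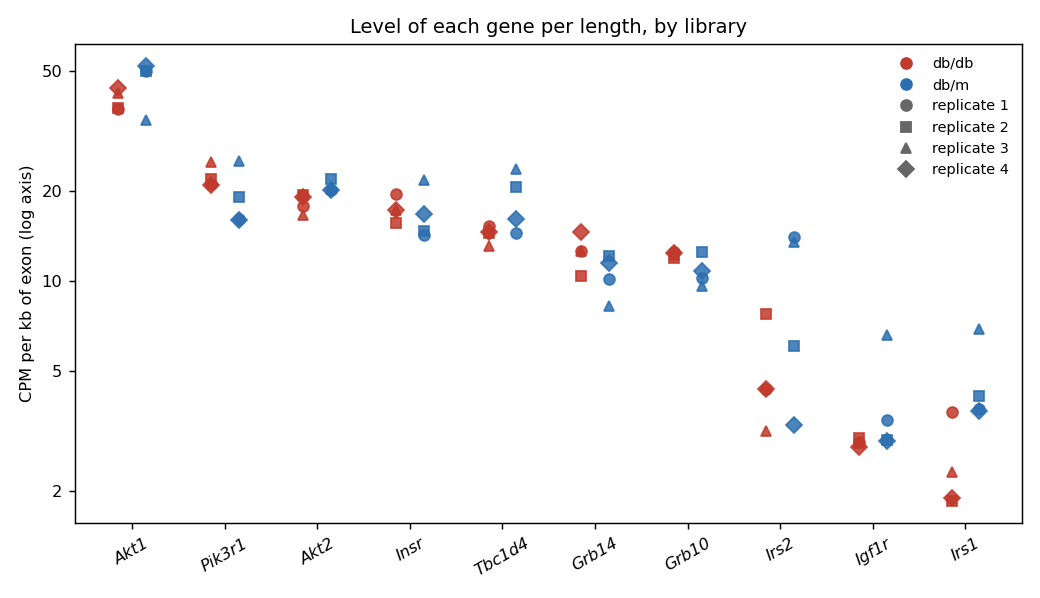
CPM per kilobase of exon on a log axis for each gene and library, db/db (red) left of db/m (blue), ordered by the db/db mean. Akt2 is shown without the counts of its copy. Igf1r and Irs1 lie low in every library, and Irs2 spreads from 3.18 to 13.99 CPM per kb, reaching above Grb10 and Grb14 in db/m replicates 1 and 3.

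Ratios between partners within a library do not depend on how libraries are scaled, but they can carry the length trend, because partners differ in length. The 5 pairs were compared by two-sided exact permutation, in which 4 against 4 libraries cannot go below 0.0286. The log2 ratio of Insr over Igf1r per length was 2.58 ± 0.15 in db/db and 2.15 ± 0.34 in db/m (SD, n = 4 each), a difference of 0.43 (exact permutation p = 0.0571; 0.286 after Benjamini-Hochberg adjustment over the 5 pairs). The lowest ratio was that of db/m replicate 3, at 3.28, and the groups overlapped. Without that library the difference was 0.29, from 3 db/m libraries.

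In the other 4 pairs the groups also overlapped. The log2 ratio of Irs1 over Irs2 was -0.998 ± 0.826 in db/db and -0.817 ± 0.858 in db/m (SD, n = 4 each; exact permutation p = 0.771). As linear ratios these ran from 0.237 to 0.837 in db/db and from 0.268 to 1.11 in db/m, so Irs2 exceeded Irs1 per length in 7 of 8 libraries, all but db/m replicate 4. With the same Irs1 counts divided by 6322 bases, as if no read came from opposite Gm9747, Irs2 did so in 5 of 8. That length was chosen after seeing the data. Akt2 over Akt1 differed by 0.01 on the log2 scale (exact permutation p = 0.943). The difference was 0.145 without db/m replicate 3 and -0.11 when the pseudogene counts were added. Grb14 over Grb10 differed by 0.07 (exact permutation p = 0.543), and Insr over its inhibitor Grb14 by -0.20 (exact permutation p = 0.657), which was 0.04 without db/m replicate 3. Adjusted over the 5 pairs these 4 p-values were all 0.943.

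Around the chain, 68 further genes of the pathway in 6 lists were examined, of which 61 were tested. By the same edgeR test 0 of them passed, beside 0.00574% of all tested genes. DESeq2 called 3 (Pik3ip1, Eif4ebp1 and Sh2b2), beside 2.17% of all genes, and limma-voom 1 (Eif4ebp1), beside 0.58%. An unadjusted p under 0.05 was found in 11, with 3 higher and 8 lower in db/db, against 5.12% higher and 7.84% lower over all tested genes. Their median log2 fold change was -0.10. The groups did not overlap in 5 of the 61 (8.2%), below the 9.65% of all tested genes: Pik3ip1, Eif4ebp1 and Trib3 were higher in every db/db library, and Sos1 and Phlpp2 lower.

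Pik3ip1, which binds the PI3K catalytic subunit and inhibits it, had 63.1, 52.4, 60.3 and 65.0 CPM in db/db, against 24.05, 25.7, 27.7 and 44.4 CPM in db/m. All db/db libraries lay above all db/m libraries. Its fitted log2 fold change was 0.98 (SE 0.20; edgeR, adjusted p = 0.136), 0.77 without db/m replicates 1 and 3 and 1.005 with the length trend removed. It passed in DESeq2 (adjusted p = 0.00136) and in edgeR without db/m replicate 4, its highest control (adjusted p = 0.0482). It did not pass in limma-voom (adjusted p = 0.0561) or in edgeR without db/m replicates 1 and 3 (adjusted p = 0.173). Nor did it pass in edgeR when any other single library was left out.

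Eif4ebp1, the translation repressor that mTOR complex 1 phosphorylates and inactivates downstream of insulin, had 40.4, 54.3, 39.9 and 45.3 CPM in db/db, against 25.3, 18.8, 13.3 and 27.4 CPM in db/m. Again every db/db library was above every db/m library. Here the log2 fold change was 1.09 (SE 0.22; edgeR, adjusted p = 0.136). Without db/m replicates 1 and 3 it was 0.96 (edgeR, adjusted p = 0.0568). It passed in DESeq2 (adjusted p = 0.00126), in limma-voom (adjusted p = 0.0296) and in edgeR without db/m replicate 3 (adjusted p = 0.0270). It did not pass in edgeR when any other single library was left out.

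Trib3, a pseudokinase that binds AKT, was also separate between the groups, at 7.86, 20.3, 6.96 and 10.9 CPM in db/db, against 4.53, 5.25, 6.37 and 5.605 CPM in db/m. Its log2 fold change was 1.08 (SE 0.32; edgeR, adjusted p = 0.285), and db/db replicate 2 was far above the rest. Without that library it was 0.66. Phlpp2, a phosphatase that acts on AKT, had 11.7 to 13.8 CPM in db/db and 13.9 to 30.2 CPM in db/m (log2 fold change -0.54, SE 0.24; edgeR, adjusted p = 0.389). Without db/m replicates 1 and 3 it was -0.13. The list of 13 brakes on the pathway, of which 12 were tested, held 2 genes higher and 0 lower at an unadjusted p under 0.05, with a median of -0.05. At such a p 5.12% of all tested genes were higher and 7.84% lower.

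Among ligands and IGF-binding proteins, of 11 listed genes 7 were tested, 0 were higher and 3 lower at an unadjusted p under 0.05, and the median log2 fold change was -0.59. Over all tested genes 5.12% were higher and 7.84% lower at such a p, with a median of -0.02. Igf1, the growth factor made in many tissues, had 38.1, 40.5, 41.4 and 38.6 CPM in db/db, against 83.5, 43.0, 104 and 34.5 CPM in db/m. Its high values were those of db/m replicates 1 and 3, and its log2 fold change of -0.74 became 0.03 without them.

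Igf2 had a log2 fold change of -1.95 in all libraries and 0.17 without these 2, and Igfbp5, an IGF-binding protein, had -1.22 and 0.02. The 5 fibroblast markers summed to 938 to 1389 CPM in db/db, against 1775 and 1621 CPM in db/m replicates 1 and 3 and 958 and 957 CPM in db/m replicates 2 and 4, with 3 of 5 higher in replicates 1 and 3 than in the other 6 libraries. The part of the fibroblast, adipocyte and atrial markers in these values was not tested. Insulin itself was at or near 0, with 0 counts of Ins1 in all libraries and at most 0.323 CPM of Ins2.

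Among other receptors, substrates and adaptors (13 listed, 11 tested, 0 higher and 3 lower at an unadjusted p under 0.05, median -0.06) the lower ones were Sh2b2, Irs3 and Sos1. Of all tested genes 5.12% were higher and 7.84% lower at such a p. Sh2b2, an adaptor of the insulin receptor in fat, had 0.862, 0.563, 1.84 and 1.17 CPM in db/db, against 7.52, 1.72, 31.8 and 2.28 CPM in db/m. The highest values were again in db/m replicates 1 and 3. Its log2 fold change of -3.28 (DESeq2, adjusted p = 0.0362; edgeR, adjusted p = 0.245) was -0.85 without them. Irs3, an adipocyte IRS protein in rodents, had 1.11 ± 0.345 CPM in db/db and 3.14 ± 2.36 CPM in db/m (SD, n = 4 each), with log2 fold changes of -1.50 in all libraries and -0.32 without the 2. Sos1, the exchange factor that leads to Ras, had 30.9 to 34.6 CPM in db/db and 36.5 to 44.1 CPM in db/m, without overlap (-0.30, SE 0.11; edgeR, adjusted p = 0.342). That value was -0.11 with the length trend removed and -0.19 without db/m replicates 1 and 3.

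None of 6 other PI3K subunits and none of 10 further kinases and complex members had an unadjusted p under 0.05 in edgeR on all libraries. Of all tested genes 13.0% had one. The median log2 fold changes of these lists were -0.05 and -0.06. The PI3K genes of smallest p were Pik3cg (-0.63, SE 0.34), Pik3ca (-0.10, SE 0.15) and Pik3r3 (-0.09, SE 0.13). Without single libraries Pik3cg ranged from -0.96 (without db/db replicate 3; edgeR, adjusted p = 0.406) to -0.37 (without db/m replicate 3). With the replicate number as a block it was -0.68 (edgeR, adjusted p = 0.368). With the length trend removed Pik3ca was 0.09 and Pik3r3 -0.02. Pdpk1, which phosphorylates AKT, was -0.27 (SE 0.15), -0.04 with the length trend removed and -0.10 without db/m replicate 3. Mtor, the kinase of the mTOR complexes, was 0.25 (SE 0.18) over all libraries and 0.15 without db/db replicate 4. It was 0.41 without db/m replicate 3 (edgeR, adjusted p = 0.213), 0.45 with the length trend removed (edgeR, adjusted p = 0.214) and 0.37 in limma-voom (adjusted p = 0.226).

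Downstream effectors (15 listed and tested, 1 higher and 2 lower at an unadjusted p under 0.05, median -0.12) included Tbc1d1, the relative of Tbc1d4. At such a p 5.12% of all tested genes were higher and 7.84% lower. Tbc1d1 had 23.5, 23.7, 32.7 and 28.9 CPM in db/db, against 61.95, 28.6, 152 and 35.2 CPM in db/m. Its log2 fold change of -1.35 (SE 0.46; edgeR, adjusted p = 0.306) was -0.24 without db/m replicates 1 and 3, whereas that of Tbc1d4 was -0.36. Foxo1, the transcription factor that AKT excludes from the nucleus, had 50.7 to 69.9 CPM in db/db and 64.1 to 136 CPM in db/m (-0.51, SE 0.23; edgeR, adjusted p = 0.385), and -0.16 without the 2 libraries.

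**Figure D5:**
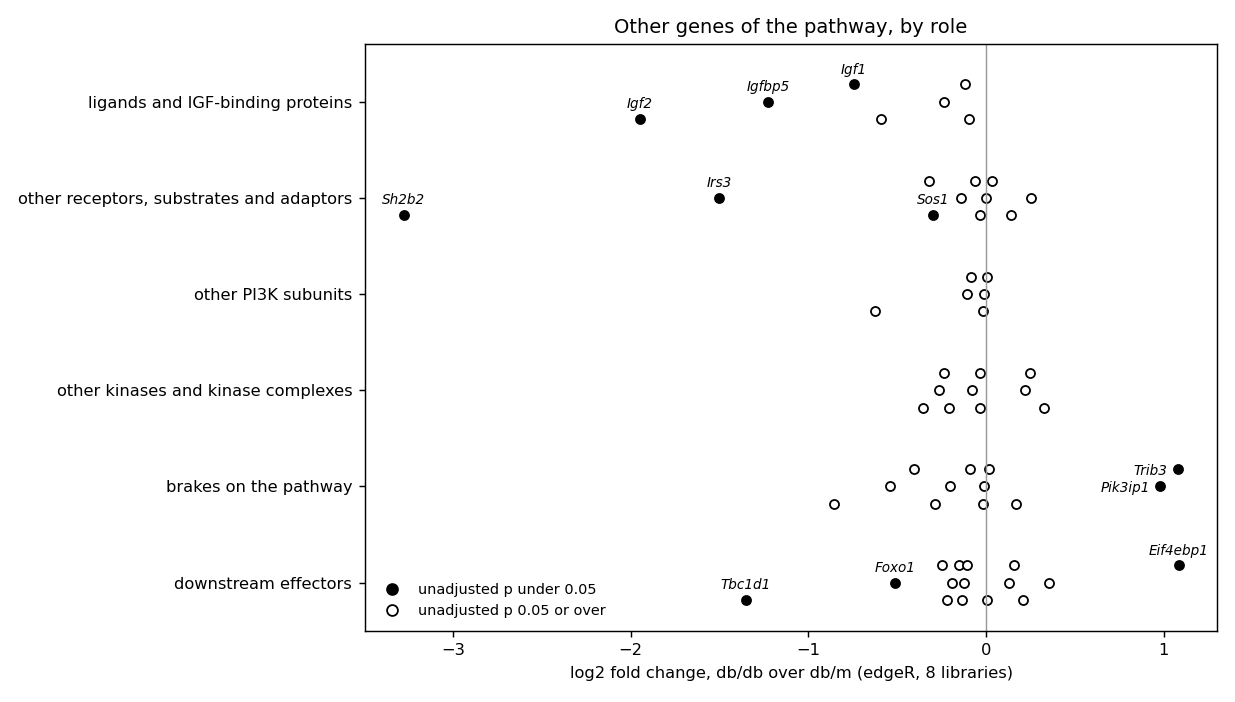
Log2 fold change (db/db over db/m) of the 61 tested pathway genes outside the chain, by role, with filled points and names where the unadjusted edgeR p was under 0.05. The 3 filled points on the right are Pik3ip1, Trib3 and Eif4ebp1, and the 8 on the left include genes high in db/m replicates 1 and 3.

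Over the 8 libraries, the genes whose log2 CPM was most like that of Insr were Wdr24 (Pearson's r = 0.985), Atp8a1 (0.973) and Tmem245 (0.970). For Irs1 they were Sgcd (0.982), Snx30 (0.981) and Tubgcp4 (0.977). Among 14478 genes compared, 68 reached an r of 0.9 with Insr and 135 with Irs1. These are descriptions over libraries that share the length trend and the split of the db/m group, and carry no test.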

How the data were processed

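RNA was measured in 8 heart libraries, each made from 3 µg of total RNA with the NEBNext Ultra kit per the labels' protocols. The authors deposited whole-number read counts per Ensembl gene, not normalised, with the exon length as another value, per the file headers. The genome build was mm10 per the submitters' processing notes. The sources used here do not give the aligner, counter, strand setting or annotation release. Single-sample files differed from the series table in 0 values, and 0 rows named no gene. Symbols came from the reference table of gene names (55394 of 55573 identifiers).

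The test was edgeR 4.0.16 (R 4.3.3) on these counts: filterByExpr (minimum count 10, minimum total 15), TMM scaling, robust quasi-likelihood F test with genotype as the single factor, two-sided, Benjamini-Hochberg over 17411 genes, threshold 0.05. SE and 95% intervals derive from that test. The procedure was tested on simulated counts with the same variability for all genes. These held no outlying library and no length trend, so the simulation does not cover those features of the data. Ratios were tested by exact permutation in SciPy 1.17.1. Copies were sought with BLAST 2.17.0, and the Akt2 copy was aligned with Biopython 1.88.

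Alternatives were DESeq2 1.42.0, limma-voom (limma 3.58.1) with quality weights, other scalings and filters, a replicate block, leaving out libraries, and removing each library's spline trend on gene length (which took the slope of log2 fold change per doubling of length to 0.00238, against -0.0881). Libraries held 19541757 to 22249911 counts, and precision falls at low counts. No pair of libraries of a genotype matched within sampling noise. The genes, lists, tests and alternatives were chosen with earlier results of these data known. Named pathway genes were, per list, those past the threshold or else the 3 tested genes of smallest p, and the named likeness genes the 3 with a mean of at least 2 CPM and the highest r. Ins1 and Ins2 were named beyond the rule, and 1 gene that the rule allows is not reported here. Added after seeing the data were the pseudogene counts added to Akt2, the Irs1 length without the bases opposite Gm9747, and the fit without db/m replicate 3 with the length trend removed.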

Additional observations from a re-analysis of the deposited data

Results flagged for a closer look

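In each group of 4 libraries, a value was singled out where its gap to the nearest other value took up most of the group's range, by Dixon's 95% critical value, which chance exceeds in about 1 of 20 groups. Of 66 groups checked, 6 were singled out (9.09%). In db/m replicate 3, 3 genes were highest: Igf1r at 110.6 CPM (next 57.7 CPM in db/m), Irs1 at 63.1 CPM (next 37.9 CPM) and Pdpk1, the kinase upstream of AKT, at 137 CPM (next 97.4 CPM). Akt1 was lowest in the same library, at 141 CPM (next 204 CPM). Akt2 was highest in db/m replicate 2, at 156 CPM (next 144 CPM). Irs3 was lowest in db/db replicate 3, at 0.599 CPM from 13 counts (next 1.22 CPM in db/db).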

How the results depend on the processing

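Of the 10 genes, 0 passed adjustment in edgeR on all libraries and in each of 19 alternatives. The number at an unadjusted p under 0.05, which was 2, was 1 with the replicate number as a block, 4 without db/m replicates 1 and 3, 4 without db/m replicate 3 and with the length trend removed, and 1 to 4 without any single library (1 without db/db replicate 1, 3 or 4, and 4 without db/m replicate 2 or 4), where 8.69% to 16.2% of all genes had such a p. Of the 61 tested pathway genes, 0 passed in edgeR on all libraries, 3 in DESeq2, 1 in limma-voom, 2 without db/m replicate 3 and with the length trend removed (Eif4ebp1 and Foxo3, the second named after its values were seen), and 0 to 1 without any single library (1 without db/m replicate 3 or 4). Of all genes 0.00574% passed in edgeR on all libraries, 2.17% in DESeq2 and 0.58% in limma-voom. That share was 0.634% without db/m replicate 3 and with the length trend removed, and 0% to 0.6% without any single library. The cause of the changes in these counts was not tested.

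Directions turned in 6 of 28 named genes. Without single libraries the log2 fold change of Insr ranged from -0.016 to 0.20 and that of Pik3ca from -0.18 to 0.047. Without db/m replicates 1 and 3 Irs2 was 0.065, Igf2 0.17, Igfbp5 0.022, Igf1 0.027 and Pik3ca 0.11. Pik3ca was also 0.086 with the length trend removed, 0.10 with that and without db/m replicate 3, and 0.044 in limma-voom. The difference of Akt2 over Akt1 was -0.11 with the pseudogene counts added. Of 532 single-gene values under alternatives, 12 turned, 7 gained a call, and the other 513 kept their direction and their side of the threshold.

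Deviations of same-numbered libraries from their group means correlated at -0.0882 to 0.0561. These values show no pairing by number, though with 4 libraries per group they cannot exclude one. Of the 4 numbers only replicate 3 correlated best with its own. With the block 5 of all tested genes passed, against 1 without it, and 11.5% had an unadjusted p under 0.05. With the pseudogene counts added the level of Akt2 was 42.6 CPM per kb in db/db and 52.9 in db/m, against 18.2 in db/db and 20.6 in db/m as counted.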
